A study of Mus musculus with 27 samples.

Results

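The transcriptome of WT P14 CD8 T cells was compared between day 5 cytotoxic T lymphocytes (CTLs) and cells activated for 12 h. The comparison rested on 6 of the 27 mouse RNA-seq libraries of the series, 3 biological replicates at each stage, chosen by their labels. Expression was deposited as FPKM, a fragment count divided by gene length and library depth, for 35275 genes, and 12480 of them had enough reads to be tested. The remaining 21 libraries came from WT naive cells and from lin28Tg and let-7Tg cells at the same stages, and serve here only as points of reference.

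The receptor of P14 T cells is a transgene, specific for the LCMV peptide gp33, which class I MHC presents. The 12 h cells were lymph node and spleen cells of WT P14+ mice stimulated with antibodies against CD3 (2 μg/mL) and CD28 (5 μg/mL) in medium with 2 μg/mL doxycycline. The day 5 CTLs were made from WT P14+ cells with soluble anti-CD3 (2 μg/mL) and irradiated splenocytes as feeder cells, received IL-2 (100 U/mL) at 48 h, and were cultured for 3 more days, also with 2 μg/mL doxycycline. Doxycycline switches on the let-7g transgene of let-7Tg mice, and WT cells received it as well, so that both WT stages shared it. The study's methods place the lin28Tg and let-7Tg P14 lines on a Rag2-/- background, whereas the label of the WT cells gives only WT P14+, and they give animals of both sexes, 6 to 10 weeks old, for the experiments as a whole. The cells were primed in culture by antibody and not by antigen, and the protocol names a lysis of erythrocytes but no purification of CD8 T cells. Time in culture, the source of costimulation (anti-CD28 or feeder cells), the supply of IL-2 and the table in which the libraries were deposited all changed together between the stages, and their effects cannot be told apart.

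A naive CD8 T cell is a small, quiescent cell. Within hours of receptor engagement it transcribes immediate early factors, cytokines and chemokines, and Myc drives its growth in mass, with new ribosomes made in the nucleolus, before the first division. Days later, under IL-2, the dividing progeny carry granules filled with granzymes and perforin, change their adhesion and chemokine receptors, and are called CTLs. Cytokine genes of effector cells are transcribed while the receptor is engaged and are shut off soon after the stimulus ends.

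The 6 libraries held 14102908 to 18848031 counted reads each. For a gene 2 kb long 10 reads were worth 0.265 to 0.355 FPKM, and a level below this rests on few reads. Replicates were closer to each other than to any library of the other stage. Replicate 3 of day 5 stood apart from the other day 5 libraries, at a distance of 51.0 and 55.0 log2 units over all tested genes against 33.8 between replicates 1 and 2. It lay nearer the 12 h cells (136 to 142) than they did (154 to 158). Where the count or median given for a list moves by more than 1.5 times without it, that value is given as well. Of the tested genes 254 passed the filter on low values only with all 12 h libraries and 660 only with all day 5 libraries, so that they leave the test when one of these is left out. They were tested because of their level at 1 stage. Leaving out a library was therefore also done with the same genes tested. Among the 12 h libraries replicate 2 stood apart, at 38.6 and 41.0 from the others against 27.7 between them. Levels are means or single values of deposited FPKM, and fold changes are day 5 minus 12 h on the scale log2(scaled FPKM + 0.5), which understates the change of low genes. A value with ± alone in parentheses after a gene is that log2 fold change with its standard error. Genes were called at a Benjamini-Hochberg adjusted p below 0.05 in a limma fit over all tested genes, and the p-values measure the spread between these libraries. RNA-seq of bulk cells gives the mean of each culture, and fewer cells that express a gene cannot be told apart from less RNA per cell.

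Most of the transcriptome differed. Of the 12480 genes tested 68.4% were called, 33.4% higher and 35.0% lower at day 5. A change of at least 2-fold was called for 33.0%, with 2385 genes higher (19.1%) and 1738 lower (13.9%), and the levels of the 3 libraries of each stage did not overlap in 74.2% of all tested genes. Any group of genes is to be read against these shares. The gene lists used below were chosen with earlier results of these data known, so that their counts are descriptions. The median log2 fold change of all tested genes was -0.02, and 0.10 without scaling between libraries, so that small shifts depend on the scaling. Changes of at least 16-fold were called for 155 genes higher and 51 genes lower at day 5. Mitosis genes, the calcium-binding and cytoskeletal proteins of motile cells, lipid desaturases and several effector receptors stood at the upper end. Chemokines, cytokines, receptor-induced transcription factors and the genes of ribosome assembly stood at the lower end, as the plot of fold changes by gene list shows.

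**Figure D1:**
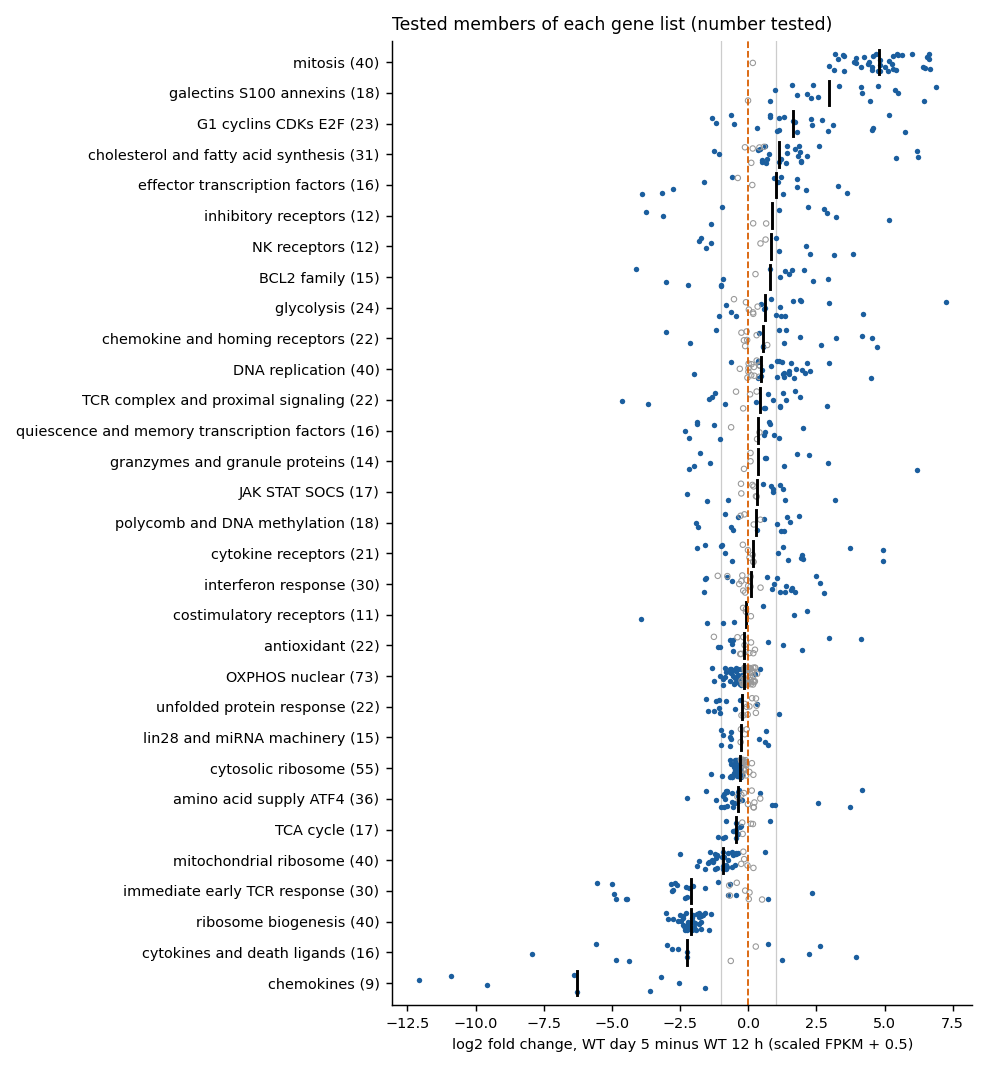
Log2 fold change (day 5 minus 12 h, WT) of each tested member of 31 gene lists. Filled points passed the test (adjusted p below 0.05, limma), open points did not, the black bar is the median of the list, the dashed line the median of all 12480 tested genes (-0.02) and the grey lines a change of 2-fold in either direction. All 40 ribosome biogenesis genes and all 9 chemokines lie beyond the 2-fold line on the lower side, and 39 of 40 mitosis genes beyond that on the higher side.

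The cells of both stages carried the transcripts that define CD8 T cells. Cd8a, a chain of the CD8 co-receptor, was at 173, 121 and 139.7 FPKM at 12 h and 174, 184 and 233 FPKM at day 5 (log2 fold change 0.31 ± 0.17 (SE), adjusted p = 0.14). The deposited FPKM did not overlap, but the difference was not called. Cd3e, a signaling chain of the T cell receptor complex, was at 185, 183 and 208 FPKM at 12 h and 377, 318 and 293 FPKM at day 5 (log2 fold change 0.63 ± 0.11 (SE), adjusted p = 0.0012). It was higher in each CTL library than in any 12 h library. Summed over 11 CD8 T cell markers, expression was 8476 to 9759 FPKM in WT naive cells, 3969 to 4343 at 12 h and 4730 to 5073 at day 5. Markers of other cells were low beside these values. The 9 dendritic cell markers, the chemokine Ccl22 among them, summed to 52.9 to 144 FPKM at 12 h and 25.6 to 55.6 at day 5. Of these Cd74, the invariant chain of class II MHC, was at 20.9, 35.8 and 17.8 FPKM at 12 h and 0.725, 0.481 and 0.492 FPKM at day 5, and Clec9a and Siglech were listed at 0 in the 3 CTL libraries. Other members make up most of the day 5 sum. The 7 members tested had log2 fold changes from -6.27 to 0.86. Of them 4 were called lower and 3 were not called, against 35.0% of all tested genes called lower, and 2 were tested only with all 12 h libraries. The 12 myeloid markers summed to 5.26 to 11.4 FPKM and then 3.94 to 7.02 FPKM, Lyz2 and the C1q genes being listed at 0 in every CTL library. These sums overlapped between the stages. Of the 3 myeloid markers tested 1 was called lower and 2 were not called, with a median log2 fold change of 0.02. The 8 erythroid markers, 4 of them globin genes, summed to 26.1 to 104 FPKM at 12 h and to 0.979 to 1.40 FPKM at day 5, and replicate 2 was the highest 12 h library for the myeloid, dendritic and erythroid sums. The 9 B cell markers summed to 88.4 to 106 FPKM at 12 h and 189.8 to 242 FPKM at day 5, nearly all of it Ighm (0.99 ± 0.14). Ms4a1 and Pax5, which define B cells, were at or near 0 at both stages. Neutrophil markers were at 1.98 to 2.63 and 0.0830 to 0.128 FPKM in sum, CD4 T cell markers at 1.71 to 2.52 and 13.7 to 28.1, and γδ T cell markers at 2.197 to 3.42 and 13.99 to 46.7. NK cell markers summed to 35.3 to 52.3 and 76.9 to 103 FPKM, and stromal and endothelial markers at 5.03 to 10.7 and 12.9 to 19.0. Within the γδ list Tcrg-C1, a constant segment of the γ chain, rose from 0.958, 0.345 and 0.492 to 11.8, 22.9 and 38.7 FPKM. Within the CD4 list Zbtb7b, the factor ThPOK, rose from 1.14, 1.495 and 1.15 to 27.7, 23.1 and 12.8 FPKM while Cd4 itself was at 0.378, 0.636 and 1.12 FPKM at 12 h and 0.122, 0.323 and 0.744 FPKM at day 5. Col1a1, a fibroblast gene, was listed at 0.0796, 0.101 and 0.0716 FPKM at 12 h and 0.449, 0.238 and 0.122 FPKM at day 5.

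**Figure D2:**
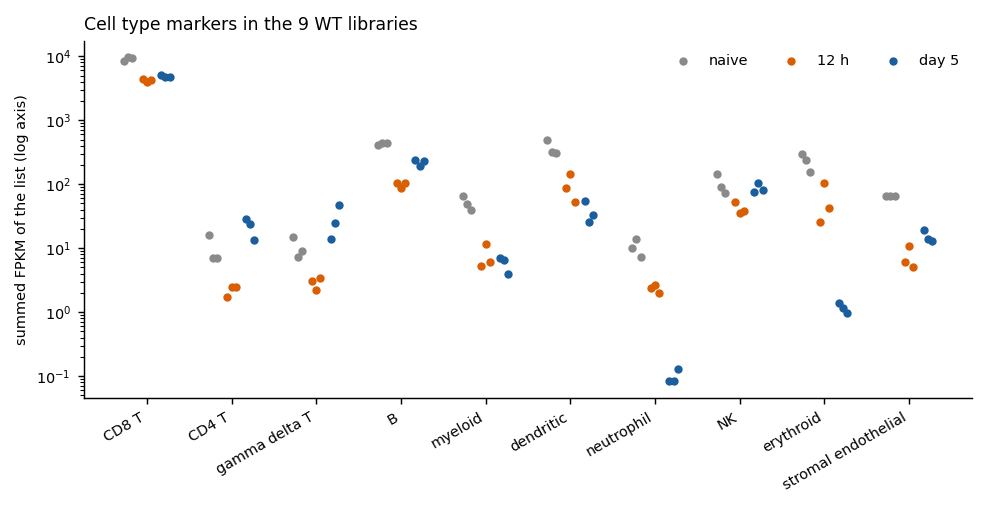
Summed FPKM (log axis) of 10 lists of cell type markers in each WT library, 3 of naive cells, 3 at 12 h and 3 at day 5. CD8 T cell markers lie at 3969 FPKM or more in each library, and the erythroid and neutrophil sums of the CTLs lie below those of all other libraries.

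The sharpest losses between 12 h and day 5 were in secreted signals. All 9 chemokines tested were lower at day 5 by at least 2-fold, with a median log2 fold change of -6.27. Of these 9 only 2 would pass the filter on low values without all 12 h libraries, and the count and median are a description of genes tested because they were high at 12 h. With a 12 h library left out these 2 were called, and all 9 with the same genes tested. Xcl1 (chr1:164931644-164935527), lymphotactin, the ligand that draws XCR1+ dendritic cells, was at 2156, 5429 and 2892 FPKM at 12 h and 0.510, 0.507 and 0 FPKM at day 5 (log2 fold change -12.09 ± 0.36 (SE), adjusted p = 2.9e-07). Ccl3, an inflammatory chemokine, was at 996, 2219 and 896 FPKM at 12 h and 0.279, 0.0693 and 0.283 FPKM at day 5 (log2 fold change -10.89 ± 0.32 (SE), adjusted p = 2.6e-07). Its neighbour Ccl4 was at 773, 1666 and 725 FPKM at 12 h and 0.647, 1.21 and 0.822 FPKM at day 5 (log2 fold change -9.59 ± 0.30 (SE), adjusted p = 3.2e-07). The stages did not overlap for any of the 3, and replicate 2 was the highest 12 h library for each. Ccl9 held 3243 reads over the 12 h libraries and none at day 5, at least 421-fold lower against a floor of 3 reads per library. Ccl5, which unlike the others is known to be stored and made late in effector and memory cells, was lowest at day 5 too, at 19.7, 33.2 and 9.99 FPKM at 12 h and 6.31, 5.48 and 7.95 FPKM at day 5 (log2 fold change -1.59 ± 0.37 (SE), adjusted p = 0.0056). These levels were below the 109, 71.5 and 61.3 FPKM of the WT naive libraries. Ccl22 (48.5, 76.2 and 18.6 FPKM at 12 h and 0.0406, 0.0808 and 0.0826 FPKM at day 5) and Ccl17 (5.11, 8.49 and 1.62 FPKM at 12 h and 0, 0 and 0.106 FPKM at day 5) are also made by dendritic cells. Ccl22 is itself among the dendritic markers summed above. Of the 7 dendritic markers tested, Ccl22 among them, 4 were called lower and 3 were not called, where 35.0% of all tested genes were called lower. Of these 7, 2 passed the filter on low values only with all 12 h libraries. They were tested because of their level at that stage. The part of dendritic cells in the fall was not tested. In the WT naive libraries the members of this list had a median of 3.87 FPKM, against 40.3 at 12 h and 0.210 at day 5.

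Of 16 cytokines and death ligands 9 fell and 5 rose, against 35.0% and 33.4% of all tested genes. Of the 16, 3 passed the filter on low values only with all 12 h libraries and 1 only with all day 5 libraries. They were tested because of their level at that stage. With a 12 h library left out 6 were called lower, and 9 with the same genes tested. With a CTL library left out 4 were called higher, and 5 with the same genes tested. Ifng (chr10:118441046-118445892), the main effector cytokine of CD8 T cells, was at 227, 294 and 169 FPKM at 12 h and 0.353, 0.527 and 0.629 FPKM at day 5 (log2 fold change -7.92 ± 0.21 (SE), adjusted p = 2.6e-07). Il2, the T cell growth factor, was at 18.6, 27.2 and 22.3 FPKM at 12 h and had no read in the CTLs, at least 159.6-fold lower. Tnf was at 71.7, 138 and 57.2 FPKM at 12 h and 23.4, 30.4 and 9.37 FPKM at day 5 (log2 fold change -2.24 ± 0.44 (SE), adjusted p = 0.0022). Of these 3 it fell least, and its stages did not overlap. Il3 (at least 59.5-fold lower), Tnfsf14, known as LIGHT (-4.36 ± 0.27), Tnfsf11, known as RANKL (-2.97 ± 0.35), Lif (-2.81 ± 0.15), Lta (-2.56 ± 0.16) and Cd40lg (-2.23 ± 0.43) also fell on the log2 scale. The 5 that rose were Il10, Fasl, Tnfsf10, Ltb and Tgfb1. Il10, an anti-inflammatory cytokine, had 1 read in all over the 12 h libraries and was at 7.29, 12.4 and 5.42 FPKM in the CTLs. Fasl, the ligand of the death receptor Fas, was at 2.02, 3.88 and 3.53 FPKM at 12 h and 23.96, 32.7 and 16.0 FPKM at day 5 (log2 fold change 2.62 ± 0.28 (SE), adjusted p = 1.0e-04). Tnfsf10, the death ligand TRAIL, was at 2.56, 2.61 and 2.24 FPKM at 12 h and 13.8, 15.5 and 14.8 FPKM at day 5 (log2 fold change 2.23 ± 0.13 (SE), adjusted p = 5.1e-06), within the range of the naive cells (26.6, 19.9 and 12.97 FPKM). Replicate 2 was the highest of the 12 h libraries for 14 of the 16 genes.

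Granule genes did not move as a block. Of 14 tested members 7 rose and 4 fell, with a median log2 fold change of 0.35, and 1 was tested only with all day 5 libraries. Without CTL replicate 3 the median was 0.07 over the 13 genes still tested and 0.26 over the same 14. Gzma (chr13:113093825-113100981), granzyme A, was at 4.36, 3.40 and 3.27 FPKM at 12 h and 612, 752 and 80.5 FPKM at day 5 (log2 fold change 6.20 ± 0.72 (SE), adjusted p = 1.4e-04). It was low at 12 h even beside the naive cells (51.5, 35.4 and 20.7 FPKM), with CTL replicate 3 well below the other 2 and above all 12 h libraries. Gzmb (chr14:56258838-56262260), granzyme B, was abundant at both stages, at 811, 344 and 729.8 FPKM at 12 h and 2307, 2355 and 2142 FPKM at day 5 (log2 fold change 1.80 ± 0.29 (SE), adjusted p = 8.3e-04). All CTL libraries lay above all 12 h libraries. Prf1 (chr10:61297833-61304680), the pore-forming perforin, went the other way, at 60.3, 141 and 75.3 FPKM at 12 h and 23.2, 26.5 and 14.8 FPKM at day 5 (log2 fold change -2.16 ± 0.31 (SE), adjusted p = 4.3e-04). Granzyme B was thus highest and perforin lowest in the CTLs among the stages of WT cells, the naive libraries holding 11.3, 4.00 and 2.05 FPKM of Gzmb and 53.4, 52.4 and 54.0 FPKM of Prf1. Gzmk was listed at 0 in all naive and 12 h libraries and at 0.745, 0.741 and 0.859 FPKM in the CTLs, at least 3.95-fold higher. Gzmc (15.03, 14.8 and 7.58 FPKM at 12 h and 179, 318 and 19.1 FPKM at day 5) was called (adjusted p = 0.018) but lost its call when 12 h replicate 3, CTL replicate 1 or CTL replicate 2 was left out. Its close copies Gzmd, Gzme, Gzmf and Gzmg had too few reads in replicate 3 to be tested and had CTL means from 0.643 to 7.98 FPKM, and reads of such near-identical genes can be assigned to the wrong copy. Ctsw, cathepsin W, rose (2.23 ± 0.12), as did the granule membrane protein Nkg7 (0.65 ± 0.14) and Lamp2 (0.63 ± 0.15). The falls beside Prf1 were in Srgn, the proteoglycan core of the granule (-1.42 ± 0.10), and in Serpinb9 (-1.98 ± 0.22) and Serpinb6b (-1.76 ± 0.35), of which the first inhibits granzyme B.

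**Figure D3:**
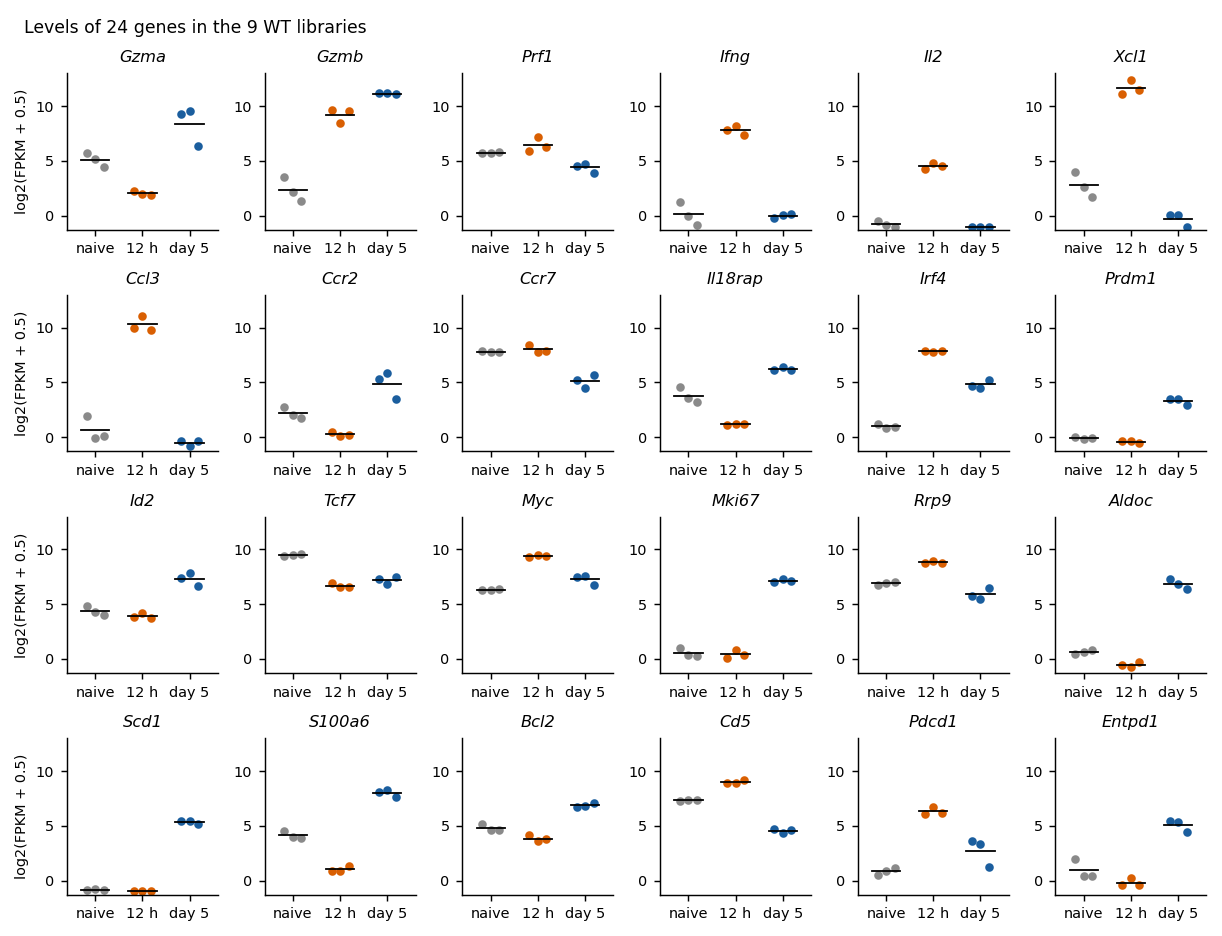
Log2(FPKM + 0.5) of 24 genes in the 9 WT libraries, with points for single libraries of naive, 12 h and day 5 cells and bars for the means of 3. Ifng, Il2, Xcl1 and Ccl3 rise from naive to 12 h and are at or near 0 FPKM at day 5, whereas Gzmb is highest at day 5 and Prf1 lowest.

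Receptor-induced genes fell with the cytokines. Among 30 immediate early and early response genes of T cell receptor signaling 21 were lower at day 5 and 2 higher, with a median log2 fold change of -2.11 against -0.02 over all tested genes. Without CTL replicate 3 the counts were 21 lower and 5 higher and the median was -1.65. Egr2, a zinc finger factor induced by calcium signaling, was at 81.8, 132 and 86.4 FPKM at 12 h and 1.64, 4.51 and 0.589 FPKM at day 5 (log2 fold change -5.57 ± 0.47 (SE), adjusted p = 3.1e-05). Nr4a1, the orphan receptor Nur77, was at 159, 379.7 and 127 FPKM at 12 h and 8.43, 11.3 and 9.01 FPKM at day 5 (log2 fold change -4.44 ± 0.35 (SE), adjusted p = 2.2e-05). Its relatives Nr4a2 (-4.99 ± 0.29) and Nr4a3 (-4.94 ± 0.24) fell alike, as did Fosl1 (-4.85 ± 0.18), Egr3 (-4.49 ± 0.23), the NF-κB subunit Rel (-2.69 ± 0.17) and the early surface antigen Cd69 (-2.61 ± 0.30). Myc, the driver of growth after activation, was at 647, 702 and 667 FPKM at 12 h and 183, 190.2 and 105 FPKM at day 5 (log2 fold change -2.26 ± 0.20 (SE), adjusted p = 3.2e-05). It was still above the naive level of 79.8, 77.3 and 82.7 FPKM. Egr1 was the exception in its spread, at 37.7, 57.5 and 39.4 FPKM at 12 h and 70.7, 153 and 2.15 FPKM at day 5, CTL replicates 1 and 2 being above and replicate 3 far below every 12 h library (adjusted p = 0.65). Without replicate 3 its log2 fold change was 1.13 and was called. The 2 genes that rose were Ier3 (2.35 ± 0.46) and Jun (0.74 ± 0.21, adjusted p = 0.014). Replicate 2 was the highest of the 12 h libraries for 27 of the 30 genes and replicate 3 the lowest of the CTLs for 20.

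The transcription factors of effector cells split between the stages. Irf4, which relays receptor strength, was at 237, 223 and 233 FPKM at 12 h and 25.9, 22.1 and 37.5 FPKM at day 5 (log2 fold change -3.17 ± 0.19 (SE), adjusted p = 5.5e-06). Prdm1, encoding Blimp-1, a repressor needed for terminal effector differentiation, was at 0.273, 0.300 and 0.189 FPKM at 12 h and 10.7, 10.4 and 7.17 FPKM at day 5 (log2 fold change 3.61 ± 0.18 (SE), adjusted p = 2.1e-06). Id2, an inhibitor of E proteins, was at 13.8, 17.4 and 12.4 FPKM at 12 h and 169, 235 and 102 FPKM at day 5 (log2 fold change 3.28 ± 0.26 (SE), adjusted p = 2.3e-05). Each of these separated the stages completely. Of the 16 factors 9 rose and 5 fell. Of these 16, 1 was tested only with all 12 h libraries and 1 only with all day 5 libraries. Runx3 (1.77 ± 0.14), Batf3 (1.78 ± 0.22), Bhlhe40 (1.26 ± 0.23), Ikzf2 (2.11 ± 0.57) and Eomes (0.96 ± 0.28, adjusted p = 0.015) rose. Zeb2 (-3.90 ± 0.28), Irf8 (-1.62 ± 0.10) and Ikzf3 (-0.61 ± 0.17) were among those that fell beside Irf4. Tbx21, encoding T-bet, was at 28.4, 25.9 and 22.3 FPKM at 12 h and 22.1, 16.4 and 26.8 FPKM at day 5, and its difference did not pass the test (log2 fold change -0.38 ± 0.20 (SE), adjusted p = 0.11) except without CTL replicate 3 (log2 fold change -0.50).

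Factors of quiescent and memory cells were about evenly divided, 7 higher and 6 lower of 16, against 33.4% and 35.0% of all tested genes. Tcf7, encoding TCF-1, was at 118, 92.1 and 93.8 FPKM at 12 h and 159.5, 116 and 173 FPKM at day 5 (log2 fold change 0.41 ± 0.18 (SE), adjusted p = 0.068). The stages overlapped, the difference was called without CTL replicate 2 (log2 fold change 0.65), and both were at a fraction of the naive 675, 727 and 786 FPKM. Klf2, which maintains quiescence and lymph node homing genes, was at 5.11, 19.9 and 4.35 FPKM at 12 h and 43.3, 21.3 and 48.7 FPKM at day 5 (log2 fold change 2.00 ± 0.54 (SE), adjusted p = 0.011), against 351, 379 and 486 FPKM in naive cells. Lef1 (1.11 ± 0.14), Satb1 (0.93 ± 0.16), Foxo1 (0.58 ± 0.13) and Ets1 (0.60 ± 0.08) rose too. The falls included Bach2 (-2.31 ± 0.11), Id3 (-2.16 ± 0.31), Foxp1 (-1.90 ± 0.08) and Tox (-1.86 ± 0.18).

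Receptors for tissue homing were mostly higher in the CTLs. Of 22 chemokine, sphingosine phosphate and adhesion receptors tested 12 rose and 3 fell (12 and 4 without CTL replicate 3, or 12 and 5 with the same genes tested). Of the 22, 1 was tested only with all 12 h libraries. Ccr2, a receptor for monocyte-attracting chemokines, was at 0.863, 0.574 and 0.649 FPKM at 12 h and 40.4, 59.0 and 10.6 FPKM at day 5 (log2 fold change 4.54 ± 0.53 (SE), adjusted p = 1.4e-04). Ccr7, which guides cells to lymph nodes, was at 340.4, 216 and 237 FPKM at 12 h and 37.6, 22.2 and 49.7 FPKM at day 5 (log2 fold change -3.03 ± 0.30 (SE), adjusted p = 6.4e-05). Replicate 3 was the lowest CTL library for Ccr2 and the highest for Ccr7, and the stages did not overlap for these 2 genes. Cxcr4 (4.16 ± 0.39), the integrin chain Itgb7 (3.23 ± 0.12), the egress receptor S1pr1 (2.65 ± 0.66) and Selplg, the P-selectin ligand (1.91 ± 0.15), also rose, from 12 h levels that were below the naive ones. Naive, 12 h and CTL means were 701, 23.4 and 248 FPKM for Itgb7 and 144, 2.86 and 15.3 FPKM for S1pr1. Cd44 fell (-1.18 ± 0.12).

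Inhibitory receptors moved in both directions, 6 higher and 4 lower of 12, against 33.4% and 35.0% of all tested genes. Entpd1, the ectonucleotidase CD39, was at 0.268, 0.676 and 0.241 FPKM at 12 h and 42.7, 39.6 and 21.2 FPKM at day 5 (log2 fold change 5.16 ± 0.29 (SE), adjusted p = 3.7e-06). Ctla4 was at 38.8, 7.91 and 26.1 FPKM at 12 h and 272, 231 and 149 FPKM at day 5 (log2 fold change 3.22 ± 0.52 (SE), adjusted p = 7.7e-04). Havcr2, encoding Tim3, was at 0.432, 1.29 and 0.170 FPKM at 12 h and 5.87, 8.89 and 1.63 FPKM at day 5 (log2 fold change 2.18 ± 0.55 (SE), adjusted p = 0.0077), low in absolute terms. The 3 CTL libraries lay above the 12 h libraries for these genes, with replicate 3 the lowest of them. Pdcd1, encoding PD-1, was at 66.7, 104 and 72.8 FPKM at 12 h and 11.7, 9.37 and 1.80 FPKM at day 5 (log2 fold change -3.76 ± 0.55 (SE), adjusted p = 4.6e-04). Btla, likewise higher at 12 h, was at 36.2, 36.9 and 36.9 FPKM at 12 h and 2.30, 2.16 and 13.4 FPKM at day 5 (log2 fold change -3.12 ± 0.57 (SE), adjusted p = 0.0016). Among 11 costimulatory receptors 3 rose and 4 fell, near the same shares of all tested genes. Slamf1 fell most, at 63.3, 86.2 and 63.4 FPKM at 12 h and 4.23, 4.48 and 4.93 FPKM at day 5 (log2 fold change -3.94 ± 0.15 (SE), adjusted p = 5.6e-07). It was followed by Cd27 (-1.52 ± 0.12), Tnfrsf9, known as 4-1BB (-0.92 ± 0.15), and Tnfrsf1b (-0.53 ± 0.13). Tnfrsf8 (2.15 ± 0.40), Cd2 (1.67 ± 0.22) and Tnfrsf18 (0.53 ± 0.20) rose, and Cd28 was not called (-0.19).

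Cytokine receptors of the CTLs differed from those of the 12 h cells in 15 of 21 genes, 9 higher and 6 lower. That share was near the 68.4% of all tested genes that were called (33.4% higher and 35.0% lower). The 2 chains of the IL-18 receptor both rose. Il18r1 was at 1.34, 3.08 and 1.18 FPKM at 12 h and 65.4, 78.9 and 81.6 FPKM at day 5 (log2 fold change 4.96 ± 0.27 (SE), adjusted p = 3.7e-06). Il18rap was at 1.63, 1.83 and 1.76 FPKM at 12 h and 70.0, 83.8 and 70.9 FPKM at day 5 (log2 fold change 4.94 ± 0.12 (SE), adjusted p = 2.6e-07). Ifngr1, the ligand-binding chain of the interferon-γ receptor, was at 44.0, 66.6 and 32.2 FPKM at 12 h and 712, 779 and 565 FPKM at day 5 (log2 fold change 3.74 ± 0.23 (SE), adjusted p = 6.7e-06). Il2rb, the β chain shared by the IL-2 and IL-15 receptors, was at 126, 109 and 109 FPKM at 12 h and 486, 468 and 556 FPKM at day 5 (log2 fold change 1.98 ± 0.11 (SE), adjusted p = 4.4e-06), 3 libraries against 3 without overlap. Il2ra, the high-affinity α chain, was at 247, 204 and 228 FPKM at 12 h and 210.3, 199 and 406 FPKM at day 5 and not called (log2 fold change 0.04 ± 0.27 (SE), adjusted p = 0.89). CTL replicate 3 lay above and the others below most 12 h values. Its log2 fold change was -0.24 without that library, or -0.31 and called with the same genes tested (adjusted p = 0.028, limma), and -0.06 without 12 h replicate 2. Il2rg, the common γ chain, fell (-1.01 ± 0.09). Il7r was at 2.67, 16.6 and 1.59 FPKM at 12 h and 24.9, 21.3 and 16.97 FPKM at day 5 (log2 fold change 2.01 ± 0.67 (SE), adjusted p = 0.027), with 12 h replicate 2 near the CTLs. Il12rb2 (1.95 ± 0.22) and Tgfbr2 (1.46 ± 0.18) rose, and Il15ra (-1.57 ± 0.13) and Il6ra (-1.89 ± 0.52) fell. Among 17 JAK, STAT and SOCS genes 8 rose and 3 fell (11 and 4 without CTL replicate 3), the largest rise being in Socs2, an inhibitor that STAT5 induces (5.10, 5.76 and 3.95 FPKM at 12 h and 45.6, 43.3 and 78.0 FPKM at day 5, log2 fold change 3.20 ± 0.25 (SE), adjusted p = 2.0e-05). The 3 that fell were Stat5a (-2.26 ± 0.11), Jak2 (-1.51 ± 0.19) and Stat6 (-0.75 ± 0.08).

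Within the T cell receptor complex and its proximal kinases 12 of 22 genes rose and 6 fell. Themis, a signaling adaptor, rose most (13.5, 12.99 and 11.2 FPKM at 12 h and 109.6, 132 and 84.1 FPKM at day 5, log2 fold change 2.90 ± 0.16 (SE), adjusted p = 3.3e-06). Cd5, which dampens receptor signals, was at 487, 478 and 598 FPKM at 12 h and 25.1, 19.9 and 23.7 FPKM at day 5 (log2 fold change -4.62 ± 0.13 (SE), adjusted p = 2.6e-07). Its homologue Cd6 was at 547, 469 and 649.8 FPKM at 12 h and 46.0, 36.8 and 59.5 FPKM at day 5 (log2 fold change -3.69 ± 0.20 (SE), adjusted p = 3.4e-06). The fall of Cd5 put the CTLs below the naive cells (157, 160.5 and 161 FPKM). Zap70 (-1.44 ± 0.10), Fyn (-1.31 ± 0.11), Lcp2 (-1.23 ± 0.12) and Lat (-0.86 ± 0.18) fell, while Cd247 (1.37 ± 0.14), Cd3g (1.26 ± 0.13) and Cd8b1 (1.18 ± 0.14) rose.

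Genes of mitosis rose almost without exception. Of 40 mitosis genes 39 rose, all by at least 2-fold, with a median log2 fold change of 4.81, where 33.4% of all tested genes rose. Mki67 (chr7:135689784-135716361), the antigen Ki-67 of cycling cells, was at 0.556, 1.20 and 0.785 FPKM at 12 h and 133, 159 and 135 FPKM at day 5 (log2 fold change 6.64 ± 0.18 (SE), adjusted p = 2.6e-07). Ccnb2, a mitotic cyclin, was at 0.552, 1.04 and 0.579 FPKM at 12 h and 134, 137 and 111 FPKM at day 5 (log2 fold change 6.61 ± 0.17 (SE), adjusted p = 2.6e-07). Nusap1, a spindle protein, was at 0.540, 0.714 and 0.347 FPKM at 12 h and 104, 137 and 97.1 FPKM at day 5 (log2 fold change 6.67 ± 0.18 (SE), adjusted p = 2.6e-07). The 12 h libraries were all at or below 1.20 FPKM for these genes and the CTL libraries all at or above 97.1. Plk1 (5.45 ± 0.16), Ccna2 (6.01 ± 0.17), Birc5, known as survivin (5.50 ± 0.28), Aurkb (5.12 ± 0.20), Top2a (4.84 ± 0.22) and Cdk1 (4.38 ± 0.19) were of the same order. Pttg1, securin, was the single member without a call, at 18.2, 17.9 and 19.7 FPKM at 12 h and 24.5, 23.9 and 20.99 FPKM at day 5 (log2 fold change 0.17 ± 0.11 (SE), adjusted p = 0.21), and was called without CTL replicate 3, though not with the same genes tested. At 12 h these transcripts were still near the naive level, the medians of the list being 0.729 FPKM in naive cells, 1.34 at 12 h and 83.0 at day 5. Replicate 2 was the highest CTL library for 34 of the 40 genes and replicate 3 the lowest for 32, and without replicate 3 the median was 4.92.

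Replication genes were above the naive level already at 12 h, by their means in 37 of 40, and rose less from there. Of the 40 25 rose and 2 fell, with a median of 0.47. Rrm2, the small subunit of ribonucleotide reductase, was at 10.8, 6.93 and 13.2 FPKM at 12 h and 250.4, 279 and 248 FPKM at day 5 (log2 fold change 4.49 ± 0.21 (SE), adjusted p = 1.8e-06). Mcm2, part of the replicative helicase, was at 133, 108 and 139.9 FPKM at 12 h and 88.8, 83.0 and 95.4 FPKM at day 5 (log2 fold change -0.65 ± 0.13 (SE), adjusted p = 0.0025). Ung, which removes uracil from DNA, was the other gene that fell (-2.01 ± 0.21). The other Mcm subunits of the replicative helicase that were tested, apart from the loading factor Mcm10, were not called. Neither was Pcna, the sliding clamp, at 461, 391 and 488 FPKM at 12 h and 498, 524 and 579.5 FPKM at day 5 against 149, 165 and 159 FPKM in naive cells. Mcm10 (2.25 ± 0.23), Cdc6 (2.15 ± 0.29), Lig1 (2.08 ± 0.24) and Tyms (1.96 ± 0.16) rose. Replicate 2 was the lowest of the 12 h libraries for 37 of these 40 genes. Among 23 G1 cyclins, kinases, inhibitors and E2F factors 19 rose and 4 fell, against 33.4% and 35.0% of all tested genes. Of these 23, 2 passed the filter on low values only with all day 5 libraries. They were tested because of their level at that stage. E2f2 (0.549, 0.508 and 0.839 FPKM at 12 h and 71.0, 59.4 and 65.0 FPKM at day 5, log2 fold change 5.75 ± 0.16 (SE), adjusted p = 2.6e-07) and the late repressors E2f8 (5.17 ± 0.15) and E2f7 (4.54 ± 0.14) were the E2F genes that rose most. Inhibitors of cyclin-dependent kinases rose as well, Cdkn2c (4.59 ± 0.17), Cdkn2d (3.12 ± 0.14), Cdkn1b (2.69 ± 0.15) and Cdkn1a (1.62 ± 0.35). Cdkn2a, which encodes p16 and p19, had no read at 12 h and was at 2.62, 5.46 and 2.73 FPKM in the CTLs, at least 14.8-fold higher. The 4 that fell were Ccnd2 (-1.33 ± 0.28), E2f4 (-1.18 ± 0.10), Cdk4 (-0.63 ± 0.10) and Ccnd1 (-0.52 ± 0.18).

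The promoters of genes that rose or fell together were searched for short motifs on both strands, from 250 bases before to 50 bases after the start, in RefSeq sequence of GRCm38.p6. Sequence was at hand for 9464 of the 12471 tested symbols. The cell cycle homology region, CHR, is bound by the complexes that time mitotic genes and has the letters TTTGAA. It stood in 14.2% of all promoters, in 19.2% of those of genes higher by at least 2-fold, in 11.8% of those lower by at least 2-fold and in 25 of 33 mitosis promoters (75.8%). In 23 of these 25 a window of 30 bases around the match could be cut, the match beginning between 103 bases before and 32 bases after the start, within 60 bases of it in 21 genes and on the strand of the gene in 17. Where a gene had several such matches the one nearest the start was taken, here and for the other motifs, which favours positions near it. The windows below are those with the largest fold changes among these 23 genes. Mitosis genes without a window, such as Nusap1, are not shown. The motif is in capitals and each sequence is read 5′ to 3′ on the strand named.
Mki67 (chr7:135716465-135716494, - strand): ttgaaccgccgttttggTTTGAAtcgggcg
Ccnb2 (chr9:70421538-70421567, - strand): gcgtcagcggcgcggtaTTTGAAtcgcgga
Cenpf (chr1:189688072-189688101, - strand): gcggcggcggcgggcagTTTGAAtcgctcg
Hmmr (chr11:40733417-40733446, - strand): gggaaagttgaggtaaaTTTGAAttcaggc
Ube2c (chr2:164769893-164769922, - strand): gcgggccgccgcccgcgTTTGAAttgcaac
Kif2c (chr4:117178853-117178882, + strand): taccagcattactcaggTTTGAAagagcag
Plk1 (chr7:122159448-122159477, + strand): acgttcccagcgccgcgTTTGAAttcgggg
Kif11 (chr19:37376356-37376385, - strand): cgattccgcgcctcaatTTTGAAaaatgga
Kif18b (chr11:102925109-102925138, - strand): atgagcggaccggctagTTTGAAcgcgccg
Prc1 (chr7:80294429-80294458, + strand): caccgcctctggctcggTTTGAAttccgcg

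The E2F motif TTCCCGC stood in 10.1% of all promoters, in 6 of 15 promoters of DNA replication genes higher by at least 2-fold (40%), in 4 of 14 of the G1 list (28.6%) and in 1 of 33 of the mitosis list (3.03%). The same 10.1% compares with 10.6% among all genes higher and 9.02% among all genes lower by at least 2-fold. These windows show the E2F letters in the replication genes with the largest fold changes that hold them. A match is a description of the letters and not of a bound site, and no promoter held overlapping matches of different motifs.
Cdc6 (chr11:98908001-98908030, - strand): ccccaggcgatTTCCCGCtctccaccggcc
Pola1 (chrX:93632259-93632288, + strand): cgcccccggccTTCCCGCgggagtgcattt
Rrm1 (chr7:102441617-102441646, + strand): aggagaactcgTTCCCGCcaggtccgcttt
Chaf1b (chr16:93883915-93883944, - strand): cagcccgcagcTTCCCGCgcgccgcaggcc

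Ribosome assembly ran in the opposite direction to mitosis. All 40 ribosome biogenesis genes tested fell, each by at least 2-fold, with log2 fold changes from -3.03 to -1.37 and a median of -2.12, where 35.0% of all tested genes fell. Rrp9 (chr9:106475963-106485424), a protein of the U3 particle that cuts precursor rRNA, was at 439, 483 and 435 FPKM at 12 h and 54.6, 45.1 and 90.9 FPKM at day 5 (log2 fold change -3.03 ± 0.24 (SE), adjusted p = 2.2e-05). Ncl, nucleolin, was at 1945, 1717 and 1868 FPKM at 12 h and 519, 574 and 888 FPKM at day 5 (log2 fold change -1.66 ± 0.20 (SE), adjusted p = 1.8e-04). Npm1, nucleophosmin, had the smallest fall, at 3541, 3088 and 3501 FPKM at 12 h and 1387, 1443 and 1483 FPKM at day 5 (log2 fold change -1.37 ± 0.10 (SE), adjusted p = 1.2e-05). No CTL library reached a 12 h library for any of the 3 genes. Grwd1 (-2.96 ± 0.33), Rrp12 (-2.75 ± 0.31), Nop2 (-2.56 ± 0.35), the RNA polymerase I subunit Polr1b (-2.31 ± 0.37), the nucleolar scaffold Nolc1 (-2.33 ± 0.37) and the methyltransferase Fbl (-1.96 ± 0.13) fell in between. All 40 genes were higher at 12 h than in naive cells by their means, the list medians being 40.6, 164 and 44.8 FPKM in naive, 12 h and day 5 cells. Replicate 3 was the highest CTL library for all 40 genes, and without it the median was -2.47 with all 40 still called.

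Myc and its relatives bind the E-box CACGTG, whose letters stood in 11.9% of all promoters, in 17.4% of those of genes lower and 9.49% of those of genes higher by at least 2-fold, and in 11 of 35 promoters of the ribosome biogenesis list (31.4%). These letters read the same on both strands. In the 7 of these genes with a window the match began between 121 bases before and 28 bases after the start. The 6 windows below are from the genes of this list whose promoters hold the letters, in order of their fall. The ATF4 response motif TGATGCAA was rare, in 0.835% of all promoters and in none of the mitosis, DNA replication or ribosome biogenesis promoters searched.
Nop2 (chr6:125131811-125131840, + strand): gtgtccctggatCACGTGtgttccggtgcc
Ltv1 (chr10:13193092-13193121, - strand): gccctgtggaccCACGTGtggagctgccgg
Utp4 (chr8:106893643-106893672, + strand): tgcgcaagcgcgCACGTGgggccggggcgg
Tsr1 (chr11:74898092-74898121, + strand): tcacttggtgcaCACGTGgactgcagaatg
Pes1 (chr11:3963965-3963994, + strand): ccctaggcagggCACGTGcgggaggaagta
Imp4 (chr1:34439696-34439725, + strand): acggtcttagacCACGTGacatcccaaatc

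The proteins of the finished ribosome changed far less than the factors that assemble it. Of 55 cytosolic ribosomal protein genes 37 fell and none rose, and only 1 of them by 2-fold or more, with a median of -0.29 and a range from -1.36 to 0.19. Rplp0, the most abundant of them at 12 h, was at 4313, 4434 and 4539 FPKM at 12 h and 3979, 3475 and 3390 FPKM at day 5 (log2 fold change -0.44 ± 0.09 (SE), adjusted p = 0.0026). In the mitochondrial ribosome 34 of 40 genes fell and 1 rose, with a median of -0.91, the gene that rose being Mrps16 (0.62 ± 0.12). The 37 became 24 without CTL replicate 2 and 22 without a filter on low values. Without scaling between libraries the cytosolic counts were 25 lower and 2 higher and the mitochondrial ones 34 and 2.

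**Figure D4:**
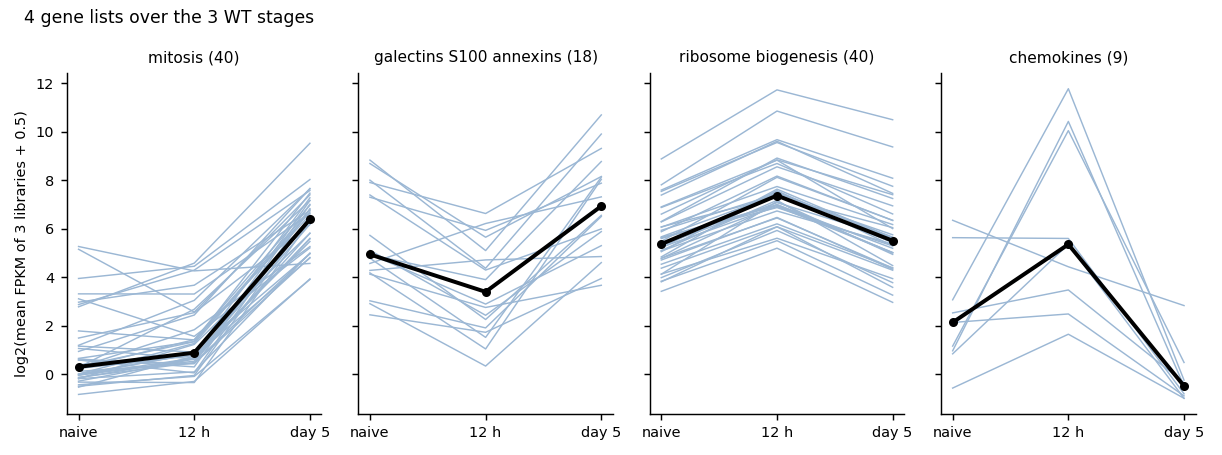
Mean FPKM (log axis) of the members of 4 gene lists in WT naive, 12 h and day 5 cells, 1 line per gene, with the list median in black. The ribosome biogenesis median goes from 40.6 to 164 and 44.8 FPKM and that of the chemokines from 3.87 to 40.3 and 0.210 FPKM, whereas the mitosis median goes from 0.729 to 1.34 and 83.0 FPKM and that of the galectins, S100 proteins and annexins from 30.1 to 10.6 and 126 FPKM.

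Genes of membranes, motility and calcium binding rose together. Of 18 galectins, S100 proteins, annexins and related cytoskeletal genes 17 rose, 15 of them by at least 2-fold, with a median of 2.94. S100a6 was at 1.28, 1.33 and 2.04 FPKM at 12 h and 272, 308 and 204 FPKM at day 5 (log2 fold change 6.87 ± 0.19 (SE), adjusted p = 2.6e-07). Vim, the intermediate filament vimentin, was at 34.8, 41.9 and 24.1 FPKM at 12 h and 1665, 1608 and 1677 FPKM at day 5 (log2 fold change 5.49 ± 0.17 (SE), adjusted p = 3.3e-07). Lgals1, galectin-1, was at 20.8, 16.6 and 22.9 FPKM at 12 h and 1195, 950.0 and 720.3 FPKM at day 5 (log2 fold change 5.38 ± 0.19 (SE), adjusted p = 4.4e-07). Every CTL library lay far above every 12 h library for these genes. S100a4 (6.44 ± 0.24), Anxa2 (4.74 ± 0.16), Lgals3 (4.48 ± 0.16), Ahnak (4.19 ± 0.26) and Anxa1 (4.12 ± 0.52) rose likewise, and Anxa7 was not called (-0.01 ± 0.15). By its median the list was lowest at 12 h, with naive cells between the stages.

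Sugar and lipid metabolism changed gene by gene. Of 24 glycolysis and glucose transport genes 14 rose and 4 fell, with a median of 0.61, and 1 was tested only with all day 5 libraries. Aldoc, aldolase C, was at 0.183, 0.103 and 0.330 FPKM at 12 h and 159, 112 and 81.5 FPKM at day 5 (log2 fold change 7.25 ± 0.24 (SE), adjusted p = 3.8e-07). Slc16a3, the lactate exporter MCT4, was at 8.07, 6.75 and 9.12 FPKM at 12 h and 244, 156 and 135 FPKM at day 5 (log2 fold change 4.22 ± 0.21 (SE), adjusted p = 2.3e-06). Eno1, enolase 1, was at 974, 681 and 1004 FPKM at 12 h and 4120, 3540 and 3367 FPKM at day 5 (log2 fold change 1.93 ± 0.16 (SE), adjusted p = 3.0e-05). CTL replicate 1 was the highest for all 3, as for 20 of the 24 genes. The glucose transporter Slc2a3 (2.97 ± 0.21), Pdk1 (1.90 ± 0.12), Tpi1 (1.36 ± 0.18) and Ldha (0.46 ± 0.12) rose, and Gapdh and Pkm were not called. The 4 that fell were Ldhb (-1.07 ± 0.17), Hk2 (-0.82 ± 0.11), Pfkfb3 (-0.62 ± 0.14) and Bpgm (-0.47 ± 0.15).

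Of 31 genes of cholesterol and fatty acid synthesis 24 rose and 2 fell, with a median of 1.14. Of these 31, 1 was tested only with all day 5 libraries. The desaturases moved most. Scd1, stearoyl-CoA desaturase, was at 0.0293, 0.0247 and 0.0264 FPKM at 12 h and 43.8, 43.2 and 36.3 FPKM at day 5 (log2 fold change 6.22 ± 0.14 (SE), adjusted p = 2.6e-07). Fads2, the Δ6 desaturase, was at 0.799, 0.475 and 1.23 FPKM at 12 h and 109, 97.6 and 96.0 FPKM at day 5 (log2 fold change 6.17 ± 0.21 (SE), adjusted p = 4.0e-07). Scd2, a stearoyl-CoA desaturase, was at 7.87, 2.94 and 8.29 FPKM at 12 h and 312, 283 and 288 FPKM at day 5 (log2 fold change 5.40 ± 0.33 (SE), adjusted p = 6.3e-06). In the cholesterol branch Dhcr7 (2.14 ± 0.19), Fdps (1.85 ± 0.21) and Hmgcs1 (1.81 ± 0.21) rose. The 2 that fell were Fasn, fatty acid synthase, at 342, 332 and 353 FPKM at 12 h and 144, 124 and 224 FPKM at day 5 (log2 fold change -1.24 ± 0.21 (SE), adjusted p = 0.001), and Acaca, acetyl-CoA carboxylase (-1.09 ± 0.17). Replicate 2 was the lowest 12 h library for 30 of the 31 genes.

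Amino acid supply showed a few large rises within a list with more falls than rises. Of 36 genes of transport, serine and one-carbon metabolism, tRNA synthesis and the ATF4 response 20 fell and 6 rose, with a median of -0.36. Without CTL replicate 2 the number that fell was 12, or 16 with the same genes tested, beside 35.0% of all tested genes. Trib3, a pseudokinase induced by ATF4, was at 1.21, 1.75 and 1.75 FPKM at 12 h and 37.9, 33.0 and 49.7 FPKM at day 5 (log2 fold change 4.17 ± 0.20 (SE), adjusted p = 1.9e-06). Asns, asparagine synthetase, was at 5.18, 7.33 and 8.68 FPKM at 12 h and 118, 117 and 89.5 FPKM at day 5 (log2 fold change 3.73 ± 0.19 (SE), adjusted p = 2.3e-06). The glutathione-degrading Chac1 was at 0.346, 0.364 and 0.390 FPKM at 12 h and 4.59, 5.90 and 4.51 FPKM at day 5 (log2 fold change 2.56 ± 0.15 (SE), adjusted p = 5.2e-06). These 3 known ATF4 targets were several-fold apart between the stages. Atf4 itself was at 204, 218 and 208 FPKM at 12 h and 158, 168 and 219 FPKM at day 5 (log2 fold change -0.36 ± 0.14 (SE), adjusted p = 0.046), a call that was lost without any single library other than CTL replicate 3. The other 3 that rose were Pycr1 (0.99 ± 0.25), Sesn2 (0.89 ± 0.14) and Psat1 (0.41 ± 0.10). Shmt1 (-2.25 ± 0.31), the glutamine transporter Slc1a5 (-1.53 ± 0.14), Slc3a2 (-0.82 ± 0.11), Shmt2 (-0.87 ± 0.12) and 12 of the 13 aminoacyl-tRNA synthetases of the list fell.

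Nuclear genes of mitochondrial energy metabolism that were called were mostly lower at day 5. Of 73 subunits of the respiratory chain 33 fell, 2 rose and 38 were not called (29 lower and 8 higher without CTL replicate 3, 24 and 12 without scaling between libraries), with a median of -0.17. Of the 12 tested genes encoded in mitochondria 5 rose and 1 fell. Of 17 genes of pyruvate oxidation and the TCA cycle 12 fell and 1, Idh2 (0.79 ± 0.10), rose, the largest fall being in Mdh2 (-1.13 ± 0.08). The 12 became 7 without CTL replicate 1, 8 without 12 h replicate 3 and, with the same genes tested, 7 without 12 h replicate 1. Chaperones of the endoplasmic reticulum fell, with 10 of 22 genes of the unfolded protein response lower and 2 higher (9 and 6 without scaling). Hspa5, the chaperone BiP, was at 951, 939 and 979 FPKM at 12 h and 325, 339 and 424 FPKM at day 5 (log2 fold change -1.55 ± 0.12 (SE), adjusted p = 2.3e-05). The 2 that rose were Edem1 (1.12 ± 0.10) and Herpud1 (0.33 ± 0.11). Of 22 antioxidant genes 5 rose and 6 fell (3 without CTL replicate 2), against 33.4% and 35.0% of all tested genes. Glrx, glutaredoxin, was at 3.00, 2.53 and 2.56 FPKM at 12 h and 60.9, 75.1 and 48.4 FPKM at day 5 (log2 fold change 4.13 ± 0.16 (SE), adjusted p = 7.5e-07). It was followed by Prdx4 (2.95 ± 0.24) and Gpx4 (1.97 ± 0.17), with Cat (1.28 ± 0.11) and Hmox1 (0.73 ± 0.17) the other 2, while Prdx3 (-1.11 ± 0.12) and Gpx1 (-1.03 ± 0.11) fell.

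Survival genes of the BCL2 family exchanged members, with 8 of 15 higher and 6 lower, and 1 of the 15 tested only with all 12 h libraries. Bcl2 was at 16.9, 11.3 and 13.2 FPKM at 12 h and 107, 114 and 136 FPKM at day 5 (log2 fold change 2.93 ± 0.17 (SE), adjusted p = 4.8e-06). Bcl2l1, encoding Bcl-xL, was at 156, 168 and 149 FPKM at 12 h and 33.6, 34.0 and 43.0 FPKM at day 5 (log2 fold change -2.23 ± 0.13 (SE), adjusted p = 4.5e-06). Bcl2a1d, encoding A1, was at 64.3, 105 and 65.5 FPKM at 12 h and 4.76, 4.67 and 3.83 FPKM at day 5 (log2 fold change -4.10 ± 0.19 (SE), adjusted p = 1.5e-06). Its near-identical copy Bcl2a1b fell as well (-3.03 ± 0.15), with reads that the counting may have assigned to either copy. These 3 survival factors were thus separated without overlap, Bcl2 higher in the CTLs and Bcl-xL and A1 higher at 12 h, and Mcl1 fell (-0.92 ± 0.08). The BH3-only genes Bmf (2.37 ± 0.31), Bbc3, known as Puma (2.04 ± 0.27), and Pmaip1, known as Noxa (1.61 ± 0.19), rose.

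Interferon-stimulated genes diverged. Of 30 tested members, 1 of them tested only with all 12 h libraries, 13 rose and 5 fell (7 fell without CTL replicate 3), with a median of 0.08. Without that library the median was 0.06, or 0.01 with the same genes tested. Their median level fell from 59.3 FPKM in naive cells to 4.38 at 12 h and was 11.3 at day 5. Ddx58, the RNA sensor RIG-I, was at 2.90, 7.28 and 2.96 FPKM at 12 h and 29.7, 36.8 and 34.0 FPKM at day 5 (log2 fold change 2.78 ± 0.30 (SE), adjusted p = 1.0e-04). Oas3 was at 4.22, 4.70 and 5.71 FPKM at 12 h and 33.4, 33.4 and 40.0 FPKM at day 5 (log2 fold change 2.62 ± 0.16 (SE), adjusted p = 5.2e-06). Isg15, the ubiquitin-like modifier, was at 7.597, 5.21 and 9.03 FPKM at 12 h and 1.27, 1.75 and 5.24 FPKM at day 5 (log2 fold change -1.54 ± 0.43 (SE), adjusted p = 0.012), lower at day 5 but overlapping. Gbp7 (2.49 ± 0.43), Ifit2 (1.71 ± 0.22) and Mx1 (1.57 ± 0.32) rose, and Oasl1 (-1.58 ± 0.26), Oasl2 (-1.64 ± 0.52), Gbp2 (-0.79 ± 0.20) and Ifit1 (-0.60 ± 0.24) were the others that fell.

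Lectin receptors of NK cells moved in both directions. Of 12 tested 6 rose and 4 fell, against 33.4% and 35.0% of all tested genes. Of the 12, 2 passed the filter on low values only with all 12 h libraries and 1 only with all day 5 libraries. With a 12 h library left out 2 were called lower. The number called lower was 8 with all 27 libraries in the fit and 9 without a filter on low values, fits in which more genes were tested. Klrk1, encoding the activating receptor NKG2D, was at 6.92, 6.20 and 5.64 FPKM at 12 h and 88.1, 118 and 116 FPKM at day 5 (log2 fold change 3.85 ± 0.15 (SE), adjusted p = 6.6e-07). Klrd1, encoding CD94, was at 74.0, 88.6 and 71.7 FPKM at 12 h and 389, 472 and 378 FPKM at day 5 (log2 fold change 2.25 ± 0.11 (SE), adjusted p = 2.3e-06). Klrc1, encoding its inhibitory partner NKG2A, was at 22.2, 30.1 and 28.3 FPKM at 12 h and 6.50, 17.97 and 7.55 FPKM at day 5 (log2 fold change -1.56 ± 0.33 (SE), adjusted p = 0.0034). Klrb1c rose (3.13 ± 0.46). Ncr1, the defining receptor of NK cells, was at 1.20, 0.928 and 1.16 FPKM at 12 h and at 0 in the CTLs, at least 9.97-fold lower, and 8 further members, 7 of them Ly49 genes, were too low to be tested. The Klra copies are so alike that their reads may be shared between them.

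Several of the largest changes lay outside these lists. The 10 genes with the largest rises included Pimreg, a mitotic regulator, at 0.0895, 0.452 and 0.322 FPKM at 12 h and 189, 188 and 121 FPKM at day 5 (log2 fold change 7.63 ± 0.23 (SE), adjusted p = 2.9e-07). Ctla2a, a cysteine protease inhibitor, was at 0.930, 0.999 and 0.743 FPKM at 12 h and 226, 259 and 152 FPKM at day 5 (log2 fold change 7.11 ± 0.19 (SE), adjusted p = 2.6e-07). Ifitm1, a membrane protein that restricts virus entry, was at 1.27, 3.21 and 0.703 FPKM at 12 h and 396, 513 and 127 FPKM at day 5 (log2 fold change 7.10 ± 0.55 (SE), adjusted p = 1.9e-05). The histone gene Hist1h2ap (6.99 ± 0.42) and the long noncoding RNA Lockd (6.77 ± 0.22) were also among them. Beside the chemokines and Ifng, the 10 largest falls included Lad1 (70.2, 103 and 60.9 FPKM at 12 h and 0, 0 and 0.0693 FPKM at day 5, log2 fold change -7.27 ± 0.20 (SE), adjusted p = 2.6e-07). The others were Rgs16, which shortens chemokine receptor signals (179, 309 and 202 FPKM at 12 h and 1.53, 1.41 and 0.696 FPKM at day 5, log2 fold change -7.19 ± 0.25 (SE), adjusted p = 4.0e-07), Utf1 (-6.86 ± 0.18) and Fscn1, the actin bundler fascin (-6.50 ± 0.36). Fscn1 is also abundant in mature dendritic cells. Of the 7 dendritic markers tested 4 were called lower and 3 were not called, 2 of the 7 being tested only with all 12 h libraries. The part of dendritic cells was not tested. Among the most abundant transcripts Eef1a1, the translation elongation factor, was at 13160, 12410 and 12970 FPKM at 12 h and 12920, 13310 and 11730 FPKM at day 5 (log2 fold change -0.17 ± 0.09 (SE), adjusted p = 0.12). Hsp90ab1 fell (8618, 7716 and 8586 FPKM at 12 h and 4124, 3996 and 3849 FPKM at day 5, log2 fold change -1.20 ± 0.09 (SE), adjusted p = 1.6e-05). Actb, cytoplasmic actin, rose to the second highest level of the CTLs (2919, 2598 and 2541 FPKM at 12 h and 7297, 7648 and 8178 FPKM at day 5, log2 fold change 1.38 ± 0.10 (SE), adjusted p = 1.4e-05).

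The same stage change was then set against that of lin28Tg cells, in which the Lin28 protein blocks let-7 maturation, and of let-7Tg cells, which express a let-7g transgene under doxycycline. Lin28b was at 10.9 and 19.4 FPKM in lin28Tg cells at 12 h and day 5 and at most 0.0270 FPKM in the WT means. Within their own genotypes 9160 of 12645 genes were called in lin28Tg and 8569 of 12653 in let-7Tg cells, by the same rule as for WT. A difference from the WT change was tested as an interaction over 18 libraries and 13588 genes, and was called for 718 genes in lin28Tg (5.28%, 184 with a more positive and 534 with a more negative change) and for 84 in let-7Tg cells (0.618%, 55 more positive and 29 more negative). The WT libraries enter both differences. The number for let-7Tg rested on single libraries, at 244 without WT day 5 replicate 3 and between 1 and 7 without WT 12 h replicate 3, WT day 5 replicate 1 or 2, or let-7Tg day 5 replicate 1 or 2. The number for lin28Tg was 403 without lin28Tg 12 h replicate 2, 425 without its replicate 3 and 449 without lin28Tg day 5 replicate 3.

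Mitosis genes gave the clearest difference. In 38 of 40 the rise from 12 h to day 5 was smaller in lin28Tg than in WT cells, with a median difference of -2.08 on the log2 scale against a median near 0 over all genes. Mki67 was at 0.848 ± 0.328 FPKM (SD, n = 3) in WT and 7.15 ± 1.603 FPKM in lin28Tg cells at 12 h, and at 142 ± 14.5 and 127 ± 22.8 FPKM at day 5 (difference of changes -2.66 ± 0.30 (SE), adjusted p = 8.8e-05). Ccna2, cyclin A2, was at 2.03 ± 0.588, 21.8 ± 6.15 and 0.408 ± 0.208 FPKM at 12 h in WT, lin28Tg and let-7Tg cells and at 176 ± 14.5, 174 ± 29.1 and 196 ± 10.2 FPKM at day 5. The genotypes were further apart at 12 h than at day 5. The difference of its change from WT was -3.10 ± 0.30 (SE), adjusted p = 4.8e-05, in lin28Tg and 1.65 ± 0.30 (SE), adjusted p = 0.026, in let-7Tg cells, the latter call being lost without any of the 5 libraries just named or let-7Tg 12 h replicate 3. In let-7Tg cells the rise was called larger for 6 of 40 mitosis genes and smaller for none. The medians of the list at 12 h were 0.550 FPKM in let-7Tg, 1.34 in WT and 7.10 in lin28Tg cells.

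The fall of ribosome biogenesis genes did not differ in the test, with none of 40 called in either genotype and medians of the difference of 0.19 and -0.01, which does not show that the changes were equal. Other lists held some differences in lin28Tg cells, with a more negative change than in WT in 9 of 40 DNA replication, 7 of 23 G1, 7 of 30 interferon-stimulated and 6 of 20 galectin, S100 and annexin genes and a more positive one in none of these lists. Prf1, which fell in WT cells, was at 144 ± 38.7 FPKM at 12 h and 244 ± 68.5 FPKM at day 5 in lin28Tg cells, a rise of 0.70 ± 0.27 within that genotype (difference from WT 2.83 ± 0.43 (SE), adjusted p = 0.001). Tcf7, without a call in WT, went from 90.1 ± 11.5 to 6.77 ± 3.33 FPKM in lin28Tg cells (difference -4.26 ± 0.41 (SE), adjusted p = 4.8e-05). Ccr7 fell further in lin28Tg cells, to 2.56 ± 0.530 FPKM against 36.5 ± 13.8 FPKM in WT CTLs (difference -4.09 ± 0.42 (SE), adjusted p = 5.2e-05). Gzma reached 4910 ± 984 FPKM in lin28Tg CTLs and 66.5 ± 49.9 FPKM in let-7Tg CTLs, but with the spread of the WT CTLs neither difference was called (adjusted p = 0.23 and 0.56). Among the genes with the smallest adjusted p for let-7Tg, Gpt2, alanine aminotransferase 2, rose less than in WT cells, from 2.596 ± 0.392 to 6.18 ± 1.00 FPKM against 1.88 ± 0.331 to 16.2 ± 0.679 FPKM (difference -1.72 ± 0.20 (SE), adjusted p = 0.0047). Ifitm1 reached 16.9 ± 6.16 FPKM against 345 ± 198 FPKM (difference -3.49 ± 0.64 (SE), adjusted p = 0.026). The call of Gpt2 held without each library in turn, and that of Ifitm1 was lost without any of 7 of them.

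**Figure D5:**
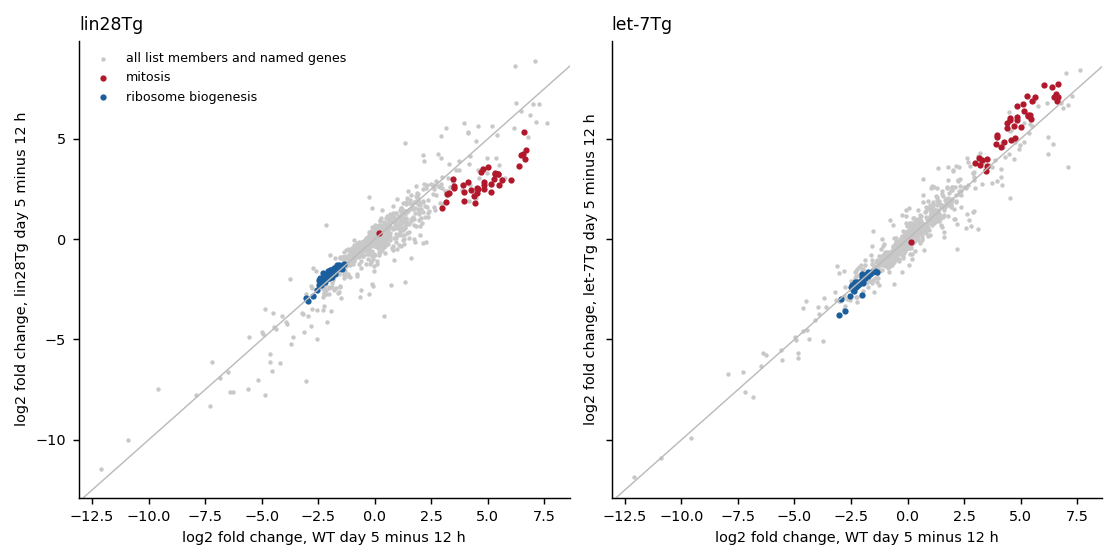
Log2 fold change from 12 h to day 5 in WT (x axis) against that in lin28Tg (left) and let-7Tg cells (right), for mitosis genes (red), ribosome biogenesis genes (blue) and the other genes of the lists or named (grey), with the diagonal of equal change. In the lin28Tg panel the mitosis genes lie below the diagonal, with a median difference of -2.08, whereas the ribosome biogenesis genes lie about it in both panels.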

How the data were processed

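RNA-seq was done by the study on 27 libraries, 3 biological replicates in each of 9 groups, of which 6 (WT at 12 h and day 5) entered the comparison. Groups came from the labels. RNA was extracted and the libraries were prepared by a company from TRIzol lysates. Per the labels' processing notes, the authors used Bowtie 2.0.6, TopHat 2.0.9, HTSeq 0.6.1 and DESeq2 on GRCm38, and deposited FPKM per gene in 1 table per stage; the annotation release was not given in the sources used here. The tables also hold the authors' group mean counts, fold changes, p-values and heatmap clusters, which were not used.

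All 462839 FPKM values above 0 gave whole reads when divided by what 1 read is worth (100%, relative tolerance 2e-07), which gave the depths. FPKM of the stages were joined by gene identifier (35275 genes), scaled by trimmed means of log ratios between libraries (30% of ratios, 5% of levels trimmed) and tested as log2(scaled FPKM + 0.5) with limma 3.58.1 in R 4.3.3 (intensity trend, Benjamini-Hochberg, threshold 0.05) where at least 3 libraries reached the FPKM of 10 reads at the median depth. The steps were tested on simulated data. A difference of change between genotypes was an interaction contrast over 18 libraries. A fold against a group with no read was computed against 3 reads per library. Depth limits low genes, and such floors cover counting error only. Overlap of groups was judged on deposited FPKM.

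The members of the lists, and the comparison itself, were chosen with earlier results of these data known. Named genes were, per list, up to 4 called members in each direction with the largest fold change, no overlap and 5 FPKM or more in the higher group, the 10 largest changes in each direction over all genes (10 FPKM or more), the 5 most abundant genes per stage, the 5 smallest adjusted p-values per genotype difference and genes that define a list. Further members were named as examples after their values were seen. Some genes the rule would name are not reported here. The replicate numbers did not pair the libraries (correlations of deviations -0.146, -0.00884 and 0.0446 for numbers 1 to 3). Gene positions are GENCODE M21 on GRCm38 (34490 identifiers matched), promoters RefSeq on GRCm38.p6. Alternatives were other scalings, pseudocounts (0.1 and 1), filters, fits and leaving out each library, the last also with the same genes tested (added after seeing the data).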

Additional observations from a re-analysis of the deposited data

Results flagged for a closer look

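For the genes named above, a change from 12 h to day 5 that differed between genotypes by the interaction test (adjusted p below 0.05, limma) drew attention. There were 53 such genes for lin28Tg and 14 for let-7Tg cells, where 5.28% and 0.618% of all genes were called. The named genes include the 5 with the smallest adjusted p-values of each difference and genes named after their values were seen. These counts can therefore not be read against the shares of all genes. Several of the genes have no read in a WT group, so that their values depend on the pseudocount. Values are the change in the transgenic cells minus the change in WT cells on the log2 scale, and the WT libraries enter both sets.

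In lin28Tg cells the difference was negative for mitosis genes and their regulators, among them Ccna2 -3.10, Birc5 -2.84, Ube2c -2.79, Aurkb -2.78, Kif2c -2.71, Mki67 -2.66, Kif18b -2.43 and Top2a -2.39. Smaller differences of the same sign were those of Cenpf -2.34, Hmmr -2.31, Cdk1 -2.28, Nusap1 -2.24, Plk1 -2.23, Kif11 -2.06, Pimreg -1.89, Lockd -1.70, Prc1 -1.45 and Ccnb2 -1.31. Of the S phase and G1 genes the values were E2f2 -2.76, E2f8 -2.52, Rrm2 -2.47, Mcm10 -2.42, Cdc6 -2.38, Cdkn2c -1.58, E2f7 -1.12, Tyms -1.04 and Cdkn2d -0.75. Transcripts of naive-like homing and identity stood out by size, with Tcf7 -4.26 and Ccr7 -4.09, the first falling where WT cells were not called and the second falling further than in WT cells. Among cytokines and chemokines, all lower at day 5 in both genotypes, the values were Il3 -2.94, Il2 -1.90 and Ccl9 -1.29, whereas Ccl4, which fell less than in WT cells, gave 2.12. Granule proteins went the other way, with Gzme 5.40, Gzmf 4.64, Gzmk 3.48 and Prf1 2.83, except for Ctsw -0.60. The remaining values were Vim -1.85, Il18rap -1.70, Ahnak -1.53, Klrk1 -1.46, Lgals1 -1.38, Anxa2 -1.22, Tnfsf10 -1.17, Stat5a -1.11, Lad1 -1.10 and Ifit2 -1.02 on the negative side and Klrb1c 2.37, Glrx 1.19, Tgfbr2 0.90, Tnfrsf9 0.87 and Lin28b 0.77 on the positive side, the last being the gene whose level defines the genotype. Of these 53 differences 31 kept their call under every alternative, those of Ccna2, Mki67, Prf1, Tcf7 and Ccr7 among them.

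In let-7Tg cells 7 of the positive values were of cell cycle genes, with Rrm2 1.83, Top2a 1.81, Ccna2 1.65, Aurkb 1.6, Kif2c 1.41, Kif18b 1.21 and Cdkn2d 1.02, and the others were Oas3 1.45 and Ctsw 0.75. The negative values were Ifitm1 -3.49, Chac1 -2.02, Gpt2 -1.72, Scd1 -1.17 and Slc3a2 -0.80. Of the 14 differences only that of Gpt2 kept its call under every alternative.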

How the results depend on the processing

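With each library left out in turn, 6947 to 8384 genes were called between the WT stages and 3515 to 3983 at 2-fold or more, against 8536 and 4123 with all 6. The list members called numbered 528 to 602 and the genes named by the rule 222 to 231. With the same genes tested, an alternative chosen after seeing the data, the ranges were 7523 to 9015, 3908 to 4453, 535 to 619 and 233 to 242. Other scalings, pseudocounts, filters and fits, and voom on the recovered reads, gave 8093 to 9720 and 3627 to 4835 genes, within 1.5 times in every case. The replicate number as a block gave 8111 and 4139 genes, 870 for lin28Tg and 118 for let-7Tg, and since the numbers did not pair the libraries it was not used. The differences between genotypes were less stable, with 403 to 832 genes for lin28Tg (718 with all libraries) and 1 to 244 for let-7Tg (84) when a library was left out, and 195 for let-7Tg with all 27 libraries in the fit and 47 without a filter on low values, where more genes were tested. Of 1386 counts of list members under other settings 55 moved by more than 1.5 times, 46 of them from a count of 5 or fewer.

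Of 335 tested genes named by the rule or in the text 322 were called, and 274 of these were tested and called in every setting. Another 28 left the test in some settings, where too few libraries reached the filter on low values or the mean was below 1 FPKM, and were called wherever they were tested, including each fit with the same genes tested. The 20 that were tested and lost their call somewhere, without a change of sign, were Atf4, Bpgm, Ccnd1, Gzmc, Herpud1, Hmox1, Ifit1, Ikzf3, Il6ra, Il7r, Isg15, Jun, Ldha, Ndufa13, Oasl2, Pecam1, Rplp0, Sod2, Tnfrsf18 and Tut7. The sign turned for genes that were not called. Over the libraries left out in turn the log2 fold change ran, with either choice of genes, from -0.31 to 0.30 for Il2ra and from -1.82 to 1.13 for Egr1, both turned without WT day 5 replicate 3 (Egr1 then called, Il2ra with the same genes tested), from -0.0078 to 0.23 for Pcna and from -0.13 to 0.18 for Anxa7. Il2ra was also at -0.06 without WT 12 h replicate 2, where Pcna turned, and Anxa7 at 0.05 and 0.01 without WT 12 h replicate 1 or 3. Anxa7 was at 0.0031 with a minimum mean of 1 FPKM, 0.029 with median of ratios scaling and 0.13 without scaling. The causes were not tested. Depth limits genes below 0.265 to 0.355 FPKM (10 reads on 2 kb), and 3 libraries a group limit the spread.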

Other observations

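Regulators of chromatin were divided in WT cells. Of 18 polycomb and DNA methylation genes 8 were called higher and 6 lower at day 5, against 33.4% and 35.0% of all tested genes. Uhrf1, which brings the maintenance methyltransferase to replicated DNA, was at 54.1, 39.3 and 71.8 FPKM at 12 h and 179.8, 169 and 164 FPKM at day 5 (log2 fold change 1.52 ± 0.20 (SE), adjusted p = 2.7e-04), and Dnmt1 itself at 56.4, 45.6 and 61.2 FPKM at 12 h and 124, 133 and 112 FPKM at day 5 (log2 fold change 1.03 ± 0.13 (SE), adjusted p = 2.2e-04). The de novo enzyme Dnmt3a went the other way, at 161, 200.2 and 168 FPKM at 12 h and 50.8, 50.2 and 59.8 FPKM at day 5 (log2 fold change -1.85 ± 0.12 (SE), adjusted p = 8.9e-06). The stages did not overlap for these 3 genes. Of the polycomb proteins the reader Cbx2 (1.43 ± 0.16) and the methyltransferase Ezh2 (0.59 ± 0.14) rose, and Bmi1 (117, 117 and 117 FPKM at 12 h and 31.5, 31.6 and 39.0 FPKM at day 5, log2 fold change -1.91 ± 0.12 (SE), adjusted p = 6.8e-06) and the ubiquitin ligases Ring1 (-0.86 ± 0.13) and Rnf2 (-0.65 ± 0.12) fell. Bmi1 had been at 45.1, 43.3 and 43.8 FPKM in naive cells, so that its level at 12 h was the highest of the stages.

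The machinery that makes and uses miRNAs was lower at day 5 in 7 of 15 tested genes and higher in 4. Over all tested genes 35.0% were lower and 33.4% higher. Drosha, the nuclease of the first step, was at 49.5, 40.7 and 45.9 FPKM at 12 h and 25.0, 24.3 and 25.4 FPKM at day 5 (log2 fold change -0.99 ± 0.11 (SE), adjusted p = 1.4e-04). Its partner Dgcr8 (-0.62 ± 0.14), the exporter Xpo5 (-1.004 ± 0.22), Tarbp2 (-0.93 ± 0.14) and the Argonautes Ago1 (-0.66 ± 0.09), Ago2 (-0.65 ± 0.14) and Ago3 (-0.69 ± 0.14) fell as well, while the terminal uridylyl transferases Tut4 (0.60 ± 0.11) and Tut7 (0.40 ± 0.13), which tail precursor let-7 bound by Lin28, rose with Tnrc6b (0.71 ± 0.14) and Ddx6 (0.64 ± 0.14). Dicer1 was at 12.9, 12.9 and 12.2 FPKM at 12 h and 9.31, 11.4 and 14.1 FPKM at day 5 and not called.

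Of 12 genes encoded in mitochondria 5 were called higher and 1 lower at day 5. mt-Co1 was at 2893, 3298 and 2918 FPKM at 12 h and 7753, 6547 and 5161 FPKM at day 5 (log2 fold change 0.94 ± 0.14 (SE), adjusted p = 4.5e-04), mt-Nd3 at 52.4, 41.5 and 57.2 FPKM at 12 h and 163, 149 and 169.7 FPKM at day 5 (log2 fold change 1.53 ± 0.14 (SE), adjusted p = 4.5e-05) and mt-Atp8 at 25.0, 36.6 and 29.1 FPKM at 12 h and 16.2, 6.24 and 14.9 FPKM at day 5 (log2 fold change -1.47 ± 0.33 (SE), adjusted p = 0.0047). mt-Co2 was at 4.35, 3.23 and 2.80 FPKM at 12 h and 3.43, 2.48 and 1.67 FPKM at day 5, far below mt-Co1 in every library although both are cut from 1 transcript, so that levels of different mitochondrial genes cannot be compared in these tables.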
